A study of Mus musculus with 4 samples.

Results

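The genes described here encode the hormones and other signalling proteins that fat tissue releases (adipokines), with receptors for leptin and adiponectin. They were chosen by name: Lep, Adipoq, Retn, Cfd, Rbp4, Nampt, Rarres2, Apln, Lepr and Adipor2. Of the 10 genes, 8 had a probe set (the group of array probes that reads a transcript) paired with their symbol alone, out of 18820 genes on the array, and each of the 8 had 1 such probe set. The annotation used pairs 0 probe sets with Cfd, which encodes the serine protease adipsin, and the 1 probe set listing Rarres2, which encodes the chemoattractant chemerin, lists another gene too, so neither was analysed here. Of the 8, 7 were bright enough to be among the 11292 genes tested, and Lepr was not.

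Total RNA of mouse epididymal fat was read on 4 whole-transcript arrays: 1 of wild type (WT) C57BL/6J mice fed a diet with 10 kcal% fat (low-fat), 1 of WT mice fed 45 kcal% fat (high-fat), and 2 of CD1d-null (CD1d-/-, KO) mice also given the low-fat diet, the first and the second KO array by their labels. The null stock came from 10 to 12 generations of crossing to C57BL/6J, and every group had eaten chow until it was 10 to 11 weeks old and then its diet for 18 to 19 weeks. RNA of 4 to 6 mice was pooled for a group, and whether both KO arrays read 1 pool or separate pools is not stated. The spread behind each p-value is thus that of the arrays alone, and how far it is technical was not tested. Some genes lay far apart on the first and second KO arrays, such as the smooth muscle gene Cnn1 at log2 intensities of 11.03 and 5.12. Others did not, such as the fat cell gene Car3 at 13.81 and 13.80. CD1d presents lipid antigens to natural killer T cells, which are missing in such mice. The question behind the series is how those cells bear on insulin resistance in lean mice.

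Each level is a log2 intensity. A difference is on the same scale unless it is called a fold. The number of arrays limits the precision, and neither WT array has a replicate. Cd1d1, whose null allele the KO mice carry, was at 11.80 on both WT arrays and at 3.74 and 3.98 on the first and second KO arrays. Fat cell markers were far above the array median of 5.68 to 5.71 on every array, with Fabp4, a fatty acid carrier of adipocytes, between 13.16 and 13.29. Markers of the adjoining epididymis were highest in sum on the WT low-fat array: the intensities of 12 such genes summed to 15193 there, 198 on the WT high-fat array, 574 on the first and 1039 on the second KO array. Of the 12, 2 lay under the median of the WT low-fat array, 12 under that of the WT high-fat array, 10 on the first and 7 on the second KO array, and single markers were high in KO too, with Adam7 at 8.71 on the second KO array and Defb30 at 8.20 on the first. Their part in the differences given here was not tested.

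Adipokines are released by fat cells and by other cells of the fat pad, and they report on energy stores or act on appetite, insulin action and vessels. Leptin is made by fat cells in proportion to their lipid load and curbs appetite through its receptor in the hypothalamus, whereas circulating adiponectin is usually lower in obesity and improves insulin action through 2 receptors of the PAQR family, AdipoR1 and AdipoR2. Resistin, in mice a fat cell product, and retinol-binding protein 4 (RBP4), a carrier of vitamin A, have both been linked to insulin resistance.

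Leptin was the member whose transcript differed most between arrays. Lep was at 11.85 on the WT low-fat array and 11.97 on the first KO array, and at 12.85 on the WT high-fat array and 12.93 on the second KO array. The arrays thus lay in a low and a high pair, and the KO arrays were on opposite sides. Lep was 1.99-fold higher on the WT high-fat than the WT low-fat array, rank 285 from the top among 11292 genes, and 1.96-fold higher on the second KO array than on the first KO array, rank 496. Against the WT low-fat array the difference was 0.11 on the first and 1.08 on the second KO array. Ordered by level the arrays were WT low-fat, the first KO array, WT high-fat and the second KO array. The diet difference, 0.99, and the gap between the KO arrays, 0.97, were nearly equal. The KO mean was 12.45 ± 0.68 (SD, n = 2).

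**Figure D1:**
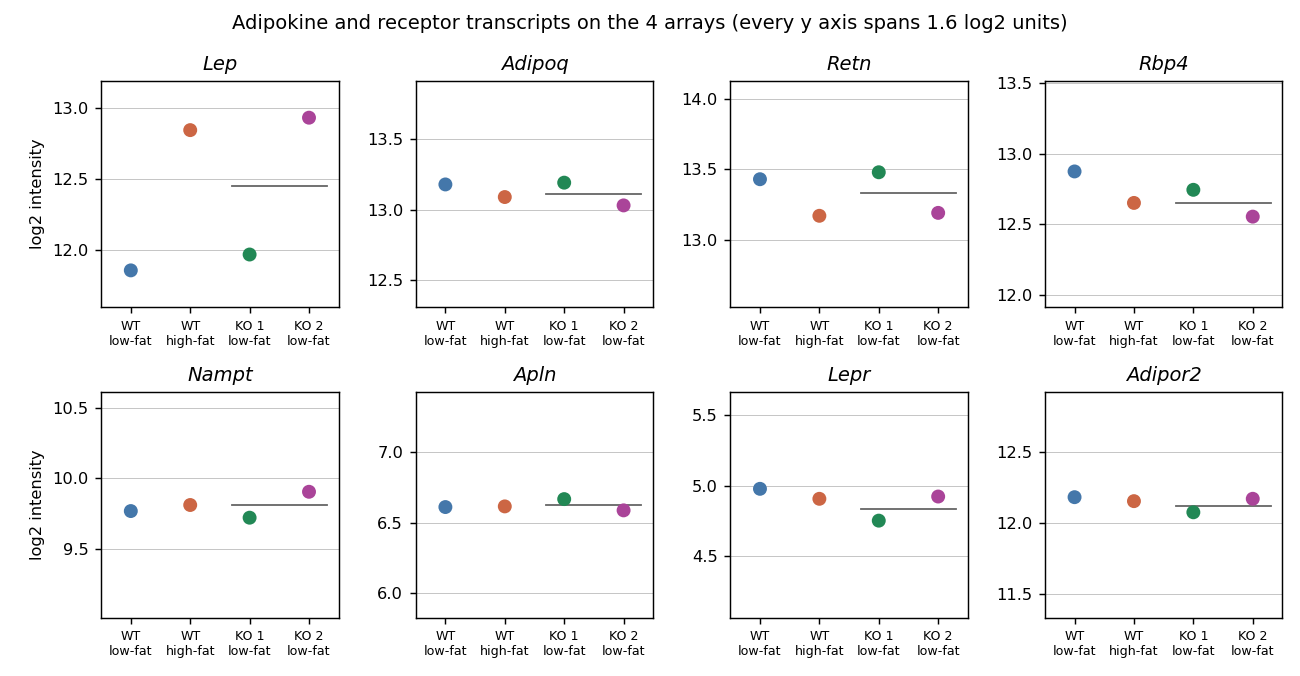
Log2 intensity (y axis) of the 8 members on the 4 arrays (x axis), 1 point per array, with a line at the mean of the KO arrays; every panel spans 1.6 log2 units. Lep lies near 11.9 on the WT low-fat and KO 1 arrays and near 12.9 on the other two, while the remaining members vary by 0.32 or less.

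Adipoq, which encodes adiponectin, was at 13.18 on the WT low-fat array, 13.09 on the WT high-fat array, 13.19 on the first and 13.03 on the second KO array. Its 4 values spanned 0.16, and the KO mean was 13.11 ± 0.11 (SD, n = 2). The WT high-fat array and the second KO array, on which Lep was high, had the lower Adipoq values, by 0.09 against the WT low-fat array and by 0.16 against the first KO array. The diet difference of Adipoq was thus smaller than the gap between the KO arrays.

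Retn, the resistin gene, was at 13.43 on the WT low-fat array, 13.17 on the WT high-fat array, 13.48 on the first and 13.19 on the second KO array (KO mean 13.34 ± 0.20, SD, n = 2). It was 1.20-fold lower on the WT high-fat than on the WT low-fat array and 1.22-fold lower on the second KO array than on the first KO array. The high values were on the arrays where Lep was low, and the diet difference, −0.26, did not exceed that of the KO pair, −0.29.

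Rbp4 was at 12.87 on the WT low-fat array, 12.65 on the WT high-fat array, 12.74 on the first and 12.55 on the second KO array. It was the member besides Lep with the widest range over the arrays, 0.32, and its highest value was on the WT low-fat array. Both KO arrays were below that array, by 1.09-fold on the first and 1.25-fold on the second KO array, and the KO mean was 12.65 ± 0.13 (SD, n = 2). These Adipoq, Retn and Rbp4 levels are close to the top of the arrays' range, whose highest gene value was 14.29. So were those of Lep on the WT high-fat and second KO arrays, 12.85 and 12.93. Compression of large signals was not tested.

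Levels of different probe sets cannot be ranked against each other, but their changes can be set side by side. Compression near the top of the range, not tested, would alter the folds below. Relative to Adipoq, Lep was 2.12-fold higher on the WT high-fat array than on the WT low-fat array, 1.07-fold higher on the first KO array and 2.34-fold higher on the second KO array. Relative to Retn, Lep was 2.38-fold, 1.04-fold and 2.50-fold higher on those arrays. The second KO array, of the low-fat diet, thus had a shift of leptin against either hormone slightly above that of the single WT high-fat array. The first KO array had almost none. The KO arrays themselves lay 2.19-fold apart in Lep relative to Adipoq and 2.39-fold apart relative to Retn.

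The sequences before the start sites of Lep, Adipoq, Retn and Rbp4, the secreted members described so far, are shown to compare their known kinds of control elements. Fat cell genes are activated by C/EBP and PPAR proteins, and C/EBP alpha is a known activator of the leptin promoter. The windows are the 250 bases upstream of the RefSeq start in assembly GRCm38.p6, 5′ to 3′ on the gene's strand, and Rbp4 is shown for 1 of its 2 listed starts. Capitals mark matches on either strand to the TATA box (TATAAA), the CCAAT box (CCAAT), one loose form of the C/EBP site (TTNNGNAA), the nuclear receptor half-site (AGGTCA) and the Sp1 GC box (GGGCGG).
Lep (chr6:29059971-29060220, plus strand): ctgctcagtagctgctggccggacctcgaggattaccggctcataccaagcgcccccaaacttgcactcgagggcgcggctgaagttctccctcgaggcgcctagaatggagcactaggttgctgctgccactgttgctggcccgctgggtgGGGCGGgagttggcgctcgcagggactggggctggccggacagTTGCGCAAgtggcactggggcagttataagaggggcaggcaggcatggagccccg
Adipoq (chr16:23146286-23146535, plus strand): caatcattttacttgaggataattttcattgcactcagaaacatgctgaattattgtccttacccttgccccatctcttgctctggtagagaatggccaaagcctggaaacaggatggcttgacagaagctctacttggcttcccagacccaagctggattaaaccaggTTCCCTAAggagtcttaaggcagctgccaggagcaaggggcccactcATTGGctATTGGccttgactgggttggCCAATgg
Retn (chr8:3655520-3655769, plus strand): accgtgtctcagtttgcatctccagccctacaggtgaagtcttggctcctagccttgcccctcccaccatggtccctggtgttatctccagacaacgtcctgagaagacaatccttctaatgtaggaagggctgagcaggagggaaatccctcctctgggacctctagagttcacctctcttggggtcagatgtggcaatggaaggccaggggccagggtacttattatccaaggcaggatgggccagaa
Rbp4 (chr19:38124812-38125061, minus strand): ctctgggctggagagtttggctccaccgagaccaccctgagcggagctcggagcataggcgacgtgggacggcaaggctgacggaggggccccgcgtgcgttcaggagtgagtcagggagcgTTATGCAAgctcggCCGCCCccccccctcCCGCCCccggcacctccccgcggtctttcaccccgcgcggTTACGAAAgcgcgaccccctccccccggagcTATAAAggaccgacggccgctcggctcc

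Upstream of Lep stood 1 GC box and 1 match to the C/EBP form, a palindrome 55 to 48 bases before the start. Its letters, TTGCGCAA, occurred in 54 of 32851 promoter windows of this length (0.164%). They were taken from this window, so the share was bound to be low. The exact letters of the Adipoq and Rbp4 matches were not counted in this way. The loose form itself was in 36.8% of the windows. The Adipoq window held 1 such match. It also held 3 CCAAT boxes within 34 bases of the start, and 33.8% of windows had at least 1 in their whole length. The Rbp4 window held a TATA box, found in 12.4% of windows, 2 C/EBP matches and 2 GC boxes. At least 1 GC box was in 32.7% of windows. The Retn window held none of the 5 motifs, and none of the 4 windows had the half-site, present in 14.0% of windows. A match describes the letters alone and is not shown to be bound here. No motif overlapped another in these windows.

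Nampt, the rate-limiting enzyme of NAD salvage, which is also secreted as visfatin, was at 9.77 on the WT low-fat array, 9.81 on the WT high-fat array, 9.72 on the first and 9.90 on the second KO array (KO mean 9.81 ± 0.13, SD, n = 2). Its diet difference of 0.04 was smaller than the 0.18 between the KO arrays. Apln, the precursor of the vasoactive peptide apelin, was at 6.61 on the WT low-fat array, 6.62 on the WT high-fat array, 6.67 on the first and 6.59 on the second KO array. It varied least of the 8 members, by 0.08 in all, at a modest signal.

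Of the receptors, Adipor2 was at 12.18 on the WT low-fat array, 12.16 on the WT high-fat array, 12.08 on the first and 12.17 on the second KO array (KO mean 12.12 ± 0.07, SD, n = 2). Both KO arrays and the WT high-fat array were within 0.11 of the WT low-fat array. Lepr, the leptin receptor, was at 4.98 on the WT low-fat array, 4.91 on the WT high-fat array, 4.75 on the first and 4.92 on the second KO array. Its signal was below the median of every array, and its 1 probe set does not tell the receptor's long and short forms apart. In limma over all 18820 genes, Lepr differed from the WT low-fat array by −0.14 in KO, with an SE of 0.23 and an adjusted p = 1. In bulk tissue a lower share of the cells that express a gene and less RNA per cell cannot be told apart, for any of these members.

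The first comparison asks which members differed with diet in WT mice. At 1.5-fold or more, 1 of the 7 tested members (Lep) was higher on the high-fat array and 0 were lower, where 7.72% of all tested genes were higher and 3.82% lower. The members' median difference was −0.03, beside 0.05 for all tested genes. There is 1 array per diet, so this comparison has no replicate check.

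The second comparison asks which members differed between KO and WT mice on the low-fat diet. By limma with Benjamini-Hochberg adjustment, 0 of the 7 tested members passed 0.05, and 0 had an unadjusted p under 0.05. Of all tested genes 0.0443% passed, which is 5 genes, all lower in KO. They were Cd1d1 itself and 4 of the epididymis markers, Lcn5, Spint4, Spint5 and Epp13. The Lep difference was 0.60, with an SE of 0.47 and a limma adjusted p = 1, and its 95% interval ran from −0.57 to 1.76. For Adipoq the difference was −0.07 (interval −0.84 to 0.71), for Retn −0.09 (−0.90 to 0.71) and for Rbp4 −0.23 (−1.01 to 0.56). The intervals of the 6 members other than Lep reached 0.77 to 0.81 on either side, so a change of 1.5-fold in either direction lay inside each of them, except above the upper bound of Rbp4, and a lack of a call does not show equal levels.

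By size, 0 members were at least 1.5-fold higher than on the WT low-fat array on both KO arrays and 0 lower, beside 0.584% and 0.77% of tested genes. On the second KO array alone Lep was higher and 0 members were lower (5.54% and 4.6% of tested genes). On the first KO array alone 0 were higher and 0 lower (1.93% and 5.02%). Lep, Rbp4 and Adipor2 differed from the WT low-fat array in 1 direction on both KO arrays, and the other 4 tested members did not. For Lep the value rests on the second KO array: the difference was 0.60 with both arrays and 0.11 without the second KO array.

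The same KO arrays were also set against the WT high-fat array, where genotype and diet differ together. By limma 0 of 7 members passed (0.00886% of tested genes) and 0 had an unadjusted p under 0.05. Lep was 0.88 lower on the first KO array and 0.09 higher on the second KO array, a mean difference of −0.40 with an adjusted p = 0.999 in limma. The mean differences of the other 6 lay between −0.03 for Adipor2 and 0.16 for Retn. These values share the KO arrays with the comparison above.

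**Figure D2:**
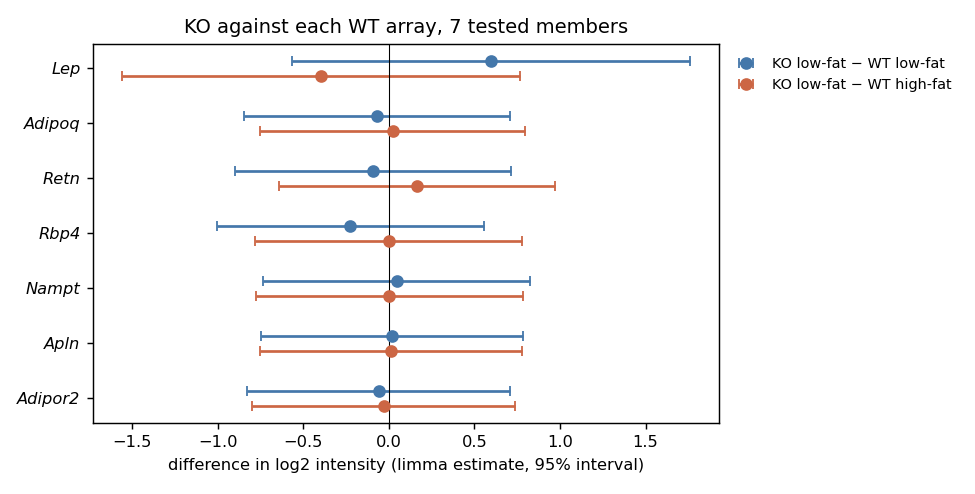
Differences in log2 intensity (x axis) between the KO mean and each WT array for the 7 tested members (y axis), with 95% intervals from limma. Every interval includes 0, and that of Lep against the WT low-fat array is the most displaced, from −0.57 to 1.76.

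The gap between the KO arrays, which share genotype and diet, was set beside these differences. At 1.5-fold, 1 member (Lep) was higher on the second KO array than on the first KO array and 0 were lower, beside 14.8% and 4.45% of tested genes, whose median difference was 0.14. The diet comparison and this one have no array in common. Of the 8 members, 5 had the same sign in both (Lep and Nampt higher, Adipoq, Retn and Rbp4 lower), as did 77.2% of tested genes, and across genes Pearson's r was 0.517, a description over genes that are no independent replicates and were normalized together. Of the genes at least 1.5-fold higher in the diet comparison, 78.0% were also higher on the second KO array than on the first KO array, and these made up 40.6% of the latter. Lep was 1 of these 680 genes. Of the genes at least 1.5-fold lower in the diet comparison, 50.6% were also lower on the second KO array, and these 218 genes made up 43.3% of those lower there. The sign of Nampt in the diet comparison turned under 2 of the other scalings, to −0.022 with quantile normalization and −0.15 with centring on adipocyte markers.

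**Figure D3:**
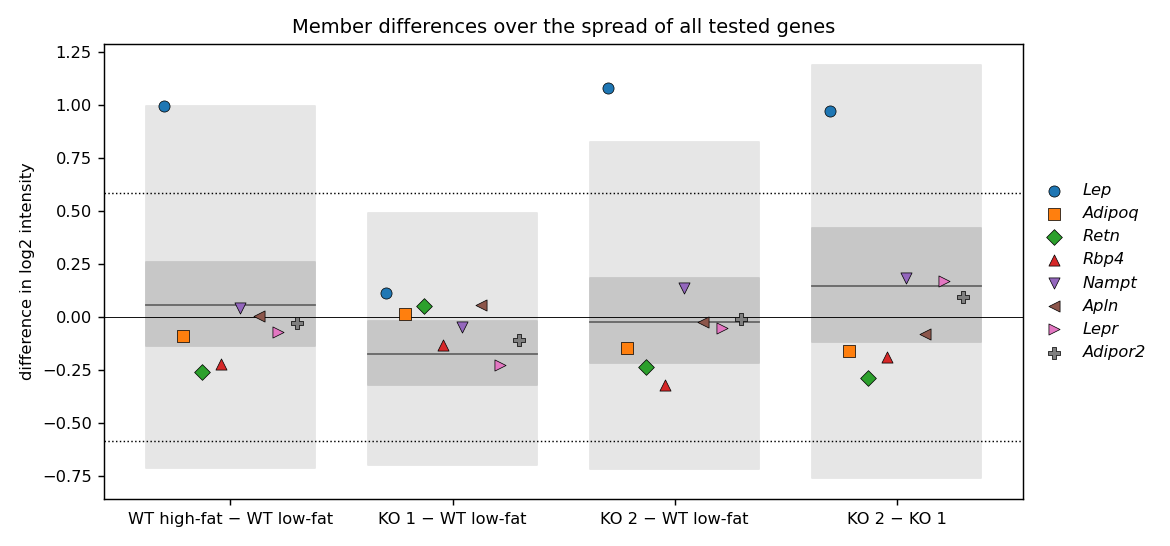
Differences in log2 intensity (y axis) of the 8 members in 4 comparisons between arrays (x axis); grey bands hold the central 50% and 95% of the 11292 tested genes, the grey line is their median and dotted lines mark 1.5-fold. Lep passes 1.5-fold in every comparison except KO 1 against WT low-fat, and the other members stay within the dotted lines.

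By Euclidean distance between mean-centred values over 4 arrays, the tested genes with the profile most like that of Lep were Dclk3 (distance 0.06), Ptchd4 (0.07) and Naip2 (0.09). Naip2 was at 6.73, 7.80, 6.92 and 7.78 on the WT low-fat, WT high-fat, KO 1 and KO 2 arrays. For Adipoq they were Abcf3, Ddx39b and Ctdspl, and for Retn Cbx3, Ndufs3 and Rabac1, all within 0.02. Near-flat profiles have many such neighbours among the 10860 genes searched, and 4 arrays separate profiles poorly.

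Fat cell markers had median differences near 0 between the arrays. With the high-fat diet 2 of the 18 (adipocyte list) were at least 1.5-fold higher and 0 lower, beside 7.72% and 3.82% of tested genes. The median difference of these adipocyte markers from the WT low-fat array was −0.03 on the WT high-fat array, −0.05 on the first and 0.000930 on the second KO array. Relative to that median, Lep was 2.04-fold higher on the WT high-fat array, 1.12-fold higher on the first KO array and 2.11-fold higher on the second KO array. The median level of the markers moved otherwise, from 12.30 on the WT low-fat to 12.49 on the WT high-fat array. With the arrays centred on that level, the Lep difference was smaller, 0.80 with diet and 0.88 between the KO arrays. The summed intensity of the markers was 101604 on the WT low-fat array, 104634 on the WT high-fat array, 98400 on the first and 103441 on the second KO array. Of the 18, 0 lay under an array's median.

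Most macrophage markers were higher on the arrays where Lep was high. Of 13 tested markers, 9 were at least 1.5-fold higher and 0 lower on the WT high-fat than on the WT low-fat array (7.72% and 3.82% of tested genes). On the second KO array 10 were higher and 0 lower than on the first KO array (14.8% and 4.45% of tested genes). The summed intensity of the 14 markers with a probe set was 9290 on the WT low-fat array, 20236 on the WT high-fat array, 7470 on the first and 17800 on the second KO array. Marco was under every array's median, and the pan-macrophage gene Adgre1 was at 8.83, 10.22, 8.23 and 9.95 on these arrays in that order. Cd163 did not follow, at 8.28, 8.06, 8.44 and 8.39 on them. Cd14 varied little, at 7.24, 7.43, 7.13 and 7.24. The part of macrophages in the Lep values was not tested. Of 7 smooth muscle markers, 4 were at least 1.5-fold lower on the WT high-fat than the WT low-fat array (3.82% of tested genes). Against the WT low-fat array 6 were higher on the first KO array (1.93% of tested genes) and 5 lower on the second (4.6%). On the second KO array 6 were lower than on the first (4.45% of tested genes). Of 7 mesothelial markers, 4 were higher and 2 lower on the second KO array than on the first (14.8% and 4.45% of tested genes). With the high-fat diet 0 were higher and 2 lower (7.72% and 3.82% of tested genes). The part of these cells was not tested either.

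Of 17 genes that relay the leptin signal, 0 were 1.5-fold apart between the WT arrays, with a median of 0.03, and 0 passed limma in KO. Of all tested genes, 7.72% were higher and 3.82% lower with the high-fat diet, so a count of 0 in a short list says little. By size, 2 of the 17 (Irs1 and Cish) were at least 1.5-fold lower on the second KO array than on the WT low-fat array. On the first KO array 0 were, beside 4.6% of tested genes on the second and 5.02% on the first. Socs3, a feedback inhibitor of leptin signalling, was at 5.83 on the WT low-fat, 6.34 on the WT high-fat, 5.78 on the first KO and 5.98 on the second KO array. Irs1, an insulin receptor substrate, was highest on the WT low-fat array, at 9.10 against 8.79, 8.72 and 8.50 on the others. On the adiponectin side, 0 of 11 receptor and signalling genes were 1.5-fold apart with diet and 0 passed limma. Prkaa2, a catalytic subunit of the kinase AMPK, was at 7.54 on the WT low-fat, 7.69 on the WT high-fat, 6.88 on the first KO and 7.64 on the second KO array. It was the 1 gene of the list at least 1.5-fold lower on the first KO array than on the WT low-fat array (5.02% of tested genes). It was also the 1 higher on the second KO array than on the first (14.8% of tested genes). Adipor1, the partner of Adipor2, was at 10.82, 10.70, 10.79 and 10.59 on the WT low-fat, WT high-fat, KO 1 and KO 2 arrays.

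Of 7 genes for the folding and secretion of adiponectin, 0 were 1.5-fold apart with diet, with a median of 0.25. Where 14.8% of tested genes were higher on the second KO array than on the first KO array, 2 of the 7 were. These were the collagen lysyl hydroxylase genes Plod1 (higher by 0.90, at 9.90 on the second KO array) and Plod2 (higher by 0.91, at 7.37), whose enzymes also modify adiponectin. Gstk1, also called DsbA-L, an adiponectin assembly factor, was at 11.26 on the WT low-fat, 11.15 on the WT high-fat, 11.05 on the first KO and 11.07 on the second KO array. None of the 7 passed limma in KO, with 0 higher and 0 lower.

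Other secreted factors of fat included several with the pattern of Lep. Of 23 tested, 6 were at least 1.5-fold higher with the high-fat diet and 0 lower (7.72% and 3.82% of tested genes). On the second KO array 9 were higher and 0 lower than on the first KO array (14.8% and 4.45% of tested genes). The acute phase gene Saa3 was at 6.83 on the WT low-fat, 9.22 on the WT high-fat, 6.43 on the first KO and 9.78 on the second KO array. Sfrp5, a secreted Wnt inhibitor, was at 10.77, 11.81, 10.46 and 11.74 on those arrays, and the adiponectin paralog C1qtnf1 at 8.82, 9.61, 8.52 and 9.46. In limma 0 of the 23 passed in KO. Tnf, Il6 and Serpina12, which encodes vaspin, were among 6 further genes under the median of every array.

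Of 9 other adipokine receptors, 5 were at least 1.5-fold higher with the high-fat diet and 0 lower (7.72% and 3.82% of tested genes). The receptors' median was 0.62, and 0 passed limma in KO. They include complement receptor genes that macrophages express. C3ar1 was at 9.41 on the WT low-fat, 11.09 on the WT high-fat, 8.93 on the first KO and 10.85 on the second KO array, and C5ar1 at 7.83, 8.97, 7.13 and 8.77. Cap1, reported as a receptor of resistin, was at 10.84, 11.51, 10.53 and 11.39 on those arrays. The macrophage marker sums given above differed between the same arrays.

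Around Cfd, 4 genes of the alternative complement pathway were tested, and 0 were 1.5-fold apart with diet. Its substrate gene Cfb was at 10.38 on the WT low-fat, 10.78 on the WT high-fat, 9.98 on the first KO and 10.98 on the second KO array. Among 10 genes of NAD synthesis and use, Nmnat3, a mitochondrial NAD-forming enzyme, was the 1 at least 1.5-fold lower with the high-fat diet, at 6.85 and 6.22. Among 10 tested retinoid genes, 2 were higher and 1 lower. Set beside all 3 lists, 7.72% of tested genes were higher and 3.82% lower with the high-fat diet. Ttr, the plasma partner of RBP4, was at 8.84 on the WT high-fat array, 1.84 above the WT low-fat array, and at 7.44 on the first and 7.43 on the second KO array. Rbp7, a retinol-binding protein of fat and vessels, was at 10.33, 9.02, 10.49 and 9.16 on those arrays, low where Lep was high. In limma 0 genes of these 3 lists passed in KO.

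Of 15 tested transcription factors that drive fat cell genes, 1 was at least 1.5-fold higher and 1 lower with the high-fat diet, where 7.72% and 3.82% of all tested genes were. Their median difference was 0.01, and 0 passed limma in KO. Hif1a, the oxygen-sensing factor, was at 9.67 on the WT low-fat, 10.26 on the WT high-fat, 9.35 on the first KO and 10.29 on the second KO array, and Cebpd at 7.55, 6.95, 7.92 and 7.03. Cebpa was at 11.10, 10.89, 11.16 and 10.87 on them. Of 6 genes of fat cell enlargement, 2 were at least 1.5-fold higher with the high-fat diet: Mest, at 11.85, 12.76, 11.87 and 12.68 on the 4 arrays in the same order, and Bmp3, at 8.86, 9.47, 9.09 and 9.11. Mest thus had its high values on the same arrays as Lep and Bmp3 did not.

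**Figure D4:**
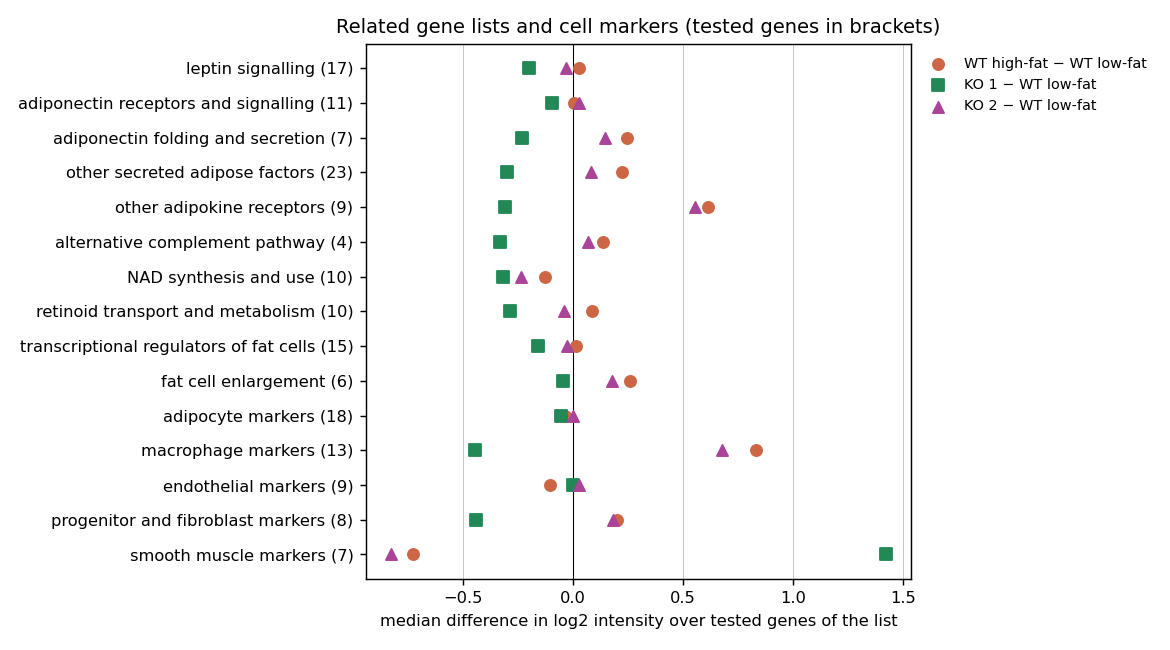
Median difference in log2 intensity from the WT low-fat array (x axis) over the tested genes of each list (y axis, number of genes in brackets), for the WT high-fat array and both KO arrays. Leptin and adiponectin signalling lists lie between −0.20 and 0.03, whereas other adipokine receptors reach 0.62 and macrophage markers 0.83 on the WT high-fat array. Smooth muscle markers are displaced most, at 1.42 on the first KO array, −0.83 on the second and −0.73 on the WT high-fat array.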

How the data were processed

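The authors deposited 1 linear intensity per probe set and array, and the submitters' processing notes name robust multi-array averaging (RMA) and R 2.15.0. The build of the probe sets is not given in the sources used here. Each linear intensity was put on the log2 scale, as planned, with no further normalization. Of 35556 probe sets, those with a single symbol (21218) were used, the brightest per gene, and the 0 unmapped value columns needed no step. Genes with a mean log2 level of at least 5.45, the 40th percentile, were tested.

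KO was compared with each WT array in limma 3.58.1 (R 4.3.3), with 3 group means, 1 residual and 4.62 prior degrees of freedom, two-sided, Benjamini-Hochberg adjusted at 0.05. The spread thus comes from the KO pair, and the lone WT arrays were assumed to vary like it. Diet was compared by size, at 1.5-fold. Members and lists were chosen with earlier results of these data known. Named genes were all members, up to 4 list genes with the largest diet difference and up to 4 with the largest change shared by the KO arrays, and up to 3 genes nearest in profile. Cell markers named, and Cebpa, Tnf, Il6 and Serpina12, were chosen after their values were seen. Alternatives covered the filter, probe set rule, scaling, variance model, thresholds and each KO array left out. Promoter windows are RefSeq's (GRCm38.p6), and all 8 members matched. Figures used matplotlib 3.10.9.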

Additional observations from a re-analysis of the deposited data

How the results depend on the processing

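The count of members past the limma threshold was 0 under every alternative fitted with limma. The lowest adjusted p against the WT low-fat array rounded to 1, and with both WT arrays as 1 group the lowest was 0.970, for Rbp4. That grouping moved the Lep difference from 0.60 to 0.10. The count at least 1.5-fold higher stayed at 1, Lep, in the diet comparison and between the KO arrays under each filter, probe set rule and scaling tried. It was 0 in both at a 2-fold threshold, since Lep lay just under it. Over these scalings and filters the Lep difference ran from 0.80 to 1.03 with diet and from 0.88 to 0.99 between the KO arrays. One of these alternatives, shifting arrays by the median difference of the adipocyte markers, was added after the data were seen.

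Small differences changed sign, and the cause was not tested. Against the WT high-fat array, median centring gave −0.018 for Nampt and −0.0081 for Apln, quantile normalization 0.0037 for Rbp4, centring on the adipocyte marker level 0.14 for Rbp4 and 0.11 for Adipor2, and the added shift −0.0052 for Nampt. Against the WT low-fat array, that centring gave −0.0044 for Nampt and −0.033 for Apln, and with both WT arrays as 1 group Retn was at 0.035. In the diet comparison, quantile normalization gave −0.022 for Nampt and −0.013 for Apln, the adipocyte marker centring −0.15 and −0.19, and the added shift 0.0057 for Adipor2. Leaving out a KO array left no residual degrees of freedom, so it gave values with no test. Between those values the count of members 1.5-fold higher in KO ran from 0 to 1.

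With 1 KO array left out at a time, the difference from the WT low-fat array ran from −0.15 to 0.013 for Adipoq, −0.24 to 0.049 for Retn, −0.023 to 0.056 for Apln and −0.047 to 0.14 for Nampt. The difference from the WT high-fat array ran from −0.88 to 0.088 for Lep, −0.059 to 0.10 for Adipoq, −0.097 to 0.093 for Rbp4, −0.090 to 0.094 for Nampt, −0.028 to 0.052 for Apln and −0.079 to 0.017 for Adipor2.

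No paired analysis was possible because the WT groups have 1 array each and carry no replicate number. Arrays carry no depth, so signal limits them, as for Lepr.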

Other observations

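The 18 fat cell markers were not uniform. Gpd1, which makes glycerol phosphate for triglyceride synthesis, was at 11.30 on the WT low-fat, 12.25 on the WT high-fat, 10.93 on the first KO and 12.19 on the second KO array. Dgat2, the last enzyme of that synthesis, was at 12.29, 12.90, 12.35 and 12.91 on those arrays. Both were high on the arrays where Lep was high. Pck1, which feeds glyceride synthesis from pyruvate, was low on them, at 12.81, 12.41, 12.79 and 12.29. These genes were picked after their values were seen.

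Plasma protein genes of liver type had another pattern. All 4 tested were at least 1.5-fold higher on the WT high-fat than on the WT low-fat array (7.72% of tested genes). On the first KO array 2 were (Apoa2, by 2.31-fold, and Ahsg, by 2.04-fold) and on the second 0, beside 1.93% and 5.54% of tested genes. Alb was at 10.92 on the WT low-fat, 12.20 on the WT high-fat, 11.24 on the first KO and 11.25 on the second KO array. Rbp4, also a liver product, was lower on the WT high-fat array, at 12.65 against 12.87.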
